A study of Mus musculus with 6 samples.

Results

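The neurons described here are chow-fed mouse hypothalamic nuclei that could be assigned both to a treatment, rapamycin or vehicle, and to a transmitter class, GABAergic or glutamatergic. The study took hypothalami of chow-fed mice, of mice with diet-induced obesity (DIO) and of chow-fed ob/ob mice (OB), each given rapamycin or vehicle, and sorted nuclei for the neuronal protein NeuN. Each pool was run as 1 droplet library (10x Genomics 3' v3), with rapamycin nuclei marked by hashtag 1 and vehicle nuclei by hashtag 2, per the deposited key. Dose, route and length of treatment, and the strain, age, sex and number of mice, are not given in the sources used here. Both chow groups were therefore hypothalamic neurons of chow-fed mice that differed, by the labels, in treatment alone.

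A nucleus was called for a treatment when the centred log2(count + 1) of its hashtag stood at least 1 above that of the other hashtag. It was GABAergic when Gad1, Gad2 and Slc32a1 together had 2 or more unique molecular identifiers (UMIs, each standing for 1 captured RNA molecule) and Slc17a6 had 0. It was glutamatergic when Slc17a6 had 1 or more and the other sum was 0. The nuclei were thus chosen by their hashtag counts and their UMIs of these 4 genes, after non-neuronal clusters had been left out. The rule found 4931 nuclei among 34542 in the series and 10853 in the chow pool. GABAergic neurons numbered 1079 with rapamycin and 1176 with vehicle, and glutamatergic neurons 1292 and 1384.

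Each treatment was 1 hashtag and the labels name no animals, so each group counts as 1 sample. No test between treatments was possible, and "higher" and "lower" describe these nuclei only. Ratios are log2 of rapamycin over vehicle in CPM, the UMIs of a gene summed over a class and scaled to a common total, so that 1 is a doubling and -1 a halving. The range in brackets after a value is a 95% exact interval that covers counting error only and not the spread between mice or nuclei. It treats each UMI as an independent draw, so it is too narrow where UMIs gather in few nuclei. After the median of a gene list, the range is instead a 95% interval from the ranks of the list's genes. A gene was counted as measured in a class with at least 100 UMIs in both treatments together, and "past the fold" means at least 1.2-fold.

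GABAergic neurons make the inhibitory transmitter GABA with the decarboxylases encoded by Gad1 and Gad2 and load it into vesicles with the transporter encoded by Slc32a1. Most excitatory hypothalamic neurons load glutamate with the transporter encoded by Slc17a6. Rapamycin binds the small protein FKBP12, encoded by Fkbp1a, and the complex inhibits mTORC1, a kinase complex on the lysosome that promotes protein and lipid synthesis and restrains autophagy. In many cells mTORC1 activity favours the SREBP transcription factors, which bind sterol regulatory elements before genes of cholesterol and fatty acid synthesis, and it holds back TFEB, which binds a lysosomal gene motif called the CLEAR E-box.

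Promoter sequence bears on the groups of genes described first, so their motifs were searched in RefSeq promoters (GRCm38.p6), from 250 bases before a gene's start to 50 bases after it, on both strands. The sterol element TCACNCCAC was found in 1 of the 25 cholesterol and fatty acid genes with a RefSeq promoter, Hmgcs1. Of all 27025 genes, some with several promoters, 1.44% held it, and of all 32851 promoters 1.24%. The CLEAR E-box CACGTGAC was found in 8 of 41 autophagy and lysosome genes, among them Lamp1, in 2.55% of all genes and in 2.25% of all promoters. The heat shock element was found in 5 of 18 heat shock genes, in 0.662% of all genes and in 0.603% of all promoters. In Dnajb6 it read GAATCTTCCGGAA and in Hsph1 TTCTGGAAAGTTC, the same motif on the other strand. The 250 bases before the starts of Hmgcs1 and Lamp1 are shown because the ratios of these genes are given below. Capitals mark the motif, which begins 137 bases before the start of Hmgcs1 and 28 bases before that of Lamp1. A match is a description of the letters and not a bound site.
Hmgcs1, chr13:119690101-119690350, plus strand: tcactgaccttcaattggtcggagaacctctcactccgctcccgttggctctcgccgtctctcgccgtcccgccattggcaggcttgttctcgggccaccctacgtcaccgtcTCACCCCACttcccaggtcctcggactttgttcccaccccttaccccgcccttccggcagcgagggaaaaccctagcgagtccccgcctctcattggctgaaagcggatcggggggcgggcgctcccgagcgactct
Lamp1, chr8:13158911-13159160, plus strand: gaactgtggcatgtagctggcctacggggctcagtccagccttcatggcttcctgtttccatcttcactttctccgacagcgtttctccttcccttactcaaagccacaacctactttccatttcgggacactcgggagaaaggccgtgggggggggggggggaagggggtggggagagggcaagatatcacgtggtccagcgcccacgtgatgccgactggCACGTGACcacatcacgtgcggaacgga

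The class sums held 7383059 UMIs in rapamycin and 8171192 in vehicle GABAergic neurons, and 9143040 and 9710330 in glutamatergic neurons. Median UMIs per nucleus ran from 6381 to 6616.5 over the 4 groups. GABAergic neurons made up 22.6% (21.5 to 23.9) of 4764 rapamycin and 22.7% (21.6 to 23.9) of 5176 vehicle neurons, and glutamatergic neurons 27.1% (25.9 to 28.4) and 26.7% (25.5 to 28.0). Both shares lay within the counting error of each other. Near the limits of the rule, 932 nuclei were GABAergic with exactly 2 UMIs and 1340 had exactly 1 and stayed out. Of the glutamatergic nuclei, 1576 had exactly 1 Slc17a6 UMI. A further 522 neurons had UMIs of both classes and 3147 had none, and these were left out. Hashtag differences were rarely close to the limit, with 4 rapamycin and 17 vehicle neurons less than 0.25 inside it and 9 and 25 less than 0.25 outside it. The chow pool shared 31 cell barcodes with the DIO pool and 38 with the OB pool.

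Genes outside the rule went with the class names. Dlx1, a transcription factor of GABAergic lineages, stood at 23.8 CPM with rapamycin and 23.9 with vehicle in GABAergic neurons, against 0.437 and 1.03 in glutamatergic neurons. Sim1, a transcription factor of paraventricular and other excitatory neurons, showed the opposite order, at 5.82 and 5.38 CPM against 91.4 and 109. The 4 genes of the rule were close between treatments, with ratios of 0.00 for Gad1, 0.00 for Gad2, -0.13 (-0.37 to 0.12) for Slc32a1 and -0.03 (-0.12 to 0.05) for Slc17a6. Since they chose the nuclei, these values are a description. In the 488 glial nuclei of the pool, whose median was 2005 UMIs, 1.64% held a Gad2 UMI and 2.25% an Slc17a6 UMI. Glial here means nuclei with a hashtag call in clusters left out as astrocyte or oligodendrocyte by their markers. Among these was cluster 29, of 81 nuclei, which met 3 astrocyte markers and was led by Ptgds, Slc6a20a and Ranbp3l. In GABAergic neurons, by selection, Gad2 was seen in 88.3% with rapamycin and 86.4% with vehicle, and after thinning to 3000 UMIs a nucleus in 61.9% and 61.0% against 2.69% of the 104 glial nuclei that deep.

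Genes of cholesterol and fatty acid synthesis were lower with rapamycin in both transmitter classes. In GABAergic neurons 20 of 28 measured genes were lower, with a median of -0.16 (-0.26 to -0.02), and in glutamatergic neurons 26 of 30 were lower, with a median of -0.15 (-0.26 to -0.11). The median over all genes measured was -0.02 in each class, with 55.2% of them lower in GABAergic and 57.6% in glutamatergic neurons, shares against which the counts of lower genes in this and the other lists are to be read. In GABAergic neurons 8 of the 28 were past the fold below vehicle and 1 above it, against 7.55% and 4.47% of all 11013 genes measured. In glutamatergic neurons 9 of the 30 were past it below and 0 above, against 7.64% and 3.87% of all 11513 genes. Summed over the list of 35 genes, the level was 1079 CPM with rapamycin and 1145 with vehicle in GABAergic neurons, and 1072 and 1142 in glutamatergic neurons.

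Among the regulators, the sterol-sensing chain had no common direction. Srebf2, which encodes the SREBP2 transcription factor, had 386 UMIs with rapamycin and 457 with vehicle in GABAergic neurons, a ratio of -0.10 (-0.30 to 0.10), and 503 and 514 in glutamatergic neurons, a ratio of 0.06. Scap, the escort of SREBP proteins, was at 0.15 (-0.10 to 0.40) and 0.22 (-0.01 to 0.45), the highest member in glutamatergic neurons. Insig1, which retains SREBP in the endoplasmic reticulum and is itself an SREBP target, was lower in both classes, at -0.40 (-0.82 to 0.02) and -0.33 (-0.70 to 0.03). Srebf1 had too few UMIs to be measured in either class.

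Hmgcs1, an early enzyme of the pathway whose promoter is shown above, was lower in both classes, with intervals that excluded 0. It had 233 UMIs with rapamycin and 325 with vehicle in GABAergic neurons, or 31.6 (27.6 to 35.9) against 39.8 (35.6 to 44.3) CPM. In glutamatergic neurons it had 306 and 388 UMIs. Its ratios were -0.33 (-0.58 to -0.09) and -0.26 (-0.48 to -0.04).

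Further along the mevalonate branch the isomerase Idi1 was the lowest member in GABAergic neurons. It had 82 UMIs with rapamycin and 127 with vehicle there, a ratio of -0.48 (-0.90 to -0.07), and 121 and 171 in glutamatergic neurons, a ratio of -0.41 (-0.76 to -0.07). Fdps, which makes farnesyl diphosphate, stood at -0.35 and -0.27, and squalene synthase, encoded by Fdft1, at -0.23 and -0.13. Sqle and Lss, which turn squalene into lanosterol, stood at -0.21 and -0.38 in GABAergic and at -0.27 and -0.29 in glutamatergic neurons. Of the steps from lanosterol to cholesterol, Cyp51, Msmo1, Sc5d, Tm7sf2 and Dhcr7 were below 0 in both classes, from -0.37 to -0.05 in GABAergic and from -0.19 to -0.09 in glutamatergic neurons. Nsdhl had opposite signs, 0.18 in GABAergic against -0.06 in glutamatergic neurons. Pmvk, an early mevalonate kinase step, was higher in both, at 0.21 and 0.14. Most of these intervals span 0.

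Stard4, a carrier of cholesterol inside the cell, was the highest member in GABAergic neurons with 63 and 58 UMIs, a ratio of 0.27 (-0.27 to 0.81). It was the lowest in glutamatergic neurons with 54 and 89 UMIs, a ratio of -0.63 (-1.15 to -0.13). The classes were not tested against each other.

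Of the fatty acid genes, Acly and Fasn had the lower ratios in glutamatergic neurons. Acly, which makes cytosolic acetyl-CoA, had 162 UMIs with rapamycin and 225 with vehicle there, a ratio of -0.39 (-0.69 to -0.09), against -0.06 (-0.37 to 0.25) in GABAergic neurons. Fasn, the fatty acid synthase, stood at -0.40 (-0.92 to 0.12) and -0.13 (-0.72 to 0.45) in that order. Acaca, the acetyl-CoA carboxylase and the best counted gene of the list, was level, with 1888 and 2071 UMIs and a ratio of 0.01 (-0.08 to 0.10) in GABAergic neurons and -0.01 (-0.09 to 0.08) in glutamatergic neurons.

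**Figure D1:**
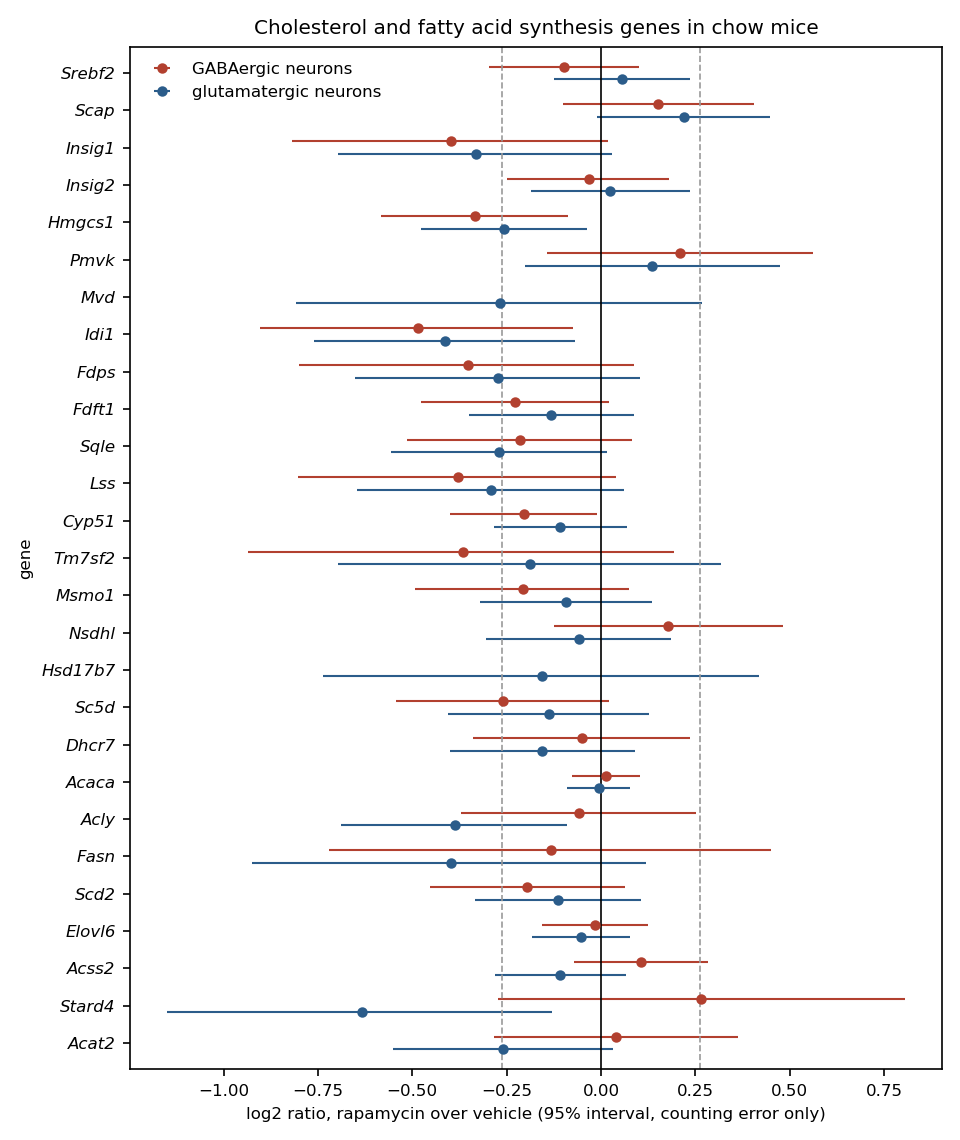
Log2 ratio of rapamycin over vehicle (horizontal axis) for measured genes of cholesterol and fatty acid synthesis, in GABAergic (red) and glutamatergic (blue) neurons. Bars are 95% intervals for counting error and dashed lines mark 1.2-fold. Most points of both colours lie left of 0, with Idi1 at -0.48 and -0.41, and Stard4 lies on opposite sides at 0.27 and -0.63.

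The same list was summed within neuron clusters. Among clusters with at least 20 nuclei of a class in each treatment, the summed list was lower with rapamycin in 8 of 9 GABAergic and 12 of 14 glutamatergic clusters. The ratios ran from -0.33 to 0.04 and from -0.34 to 0.11. Cluster 22, led by Corin, Npy and Acvr1c, was lowest of the GABAergic clusters, at 986 CPM with rapamycin and 1243.5 with vehicle (28 and 29 nuclei). Cluster 12, led by Col19a1, Mamdc2 and Myo5b, was lowest of the glutamatergic clusters, at 637 and 803 CPM (74 and 98 nuclei). The largest GABAergic cluster, led by Meis2 and Cdh23, was nearly level at 1047 and 1086 CPM. The direction was not particular to this list. Heat shock genes were lower in 8 of 9 GABAergic and 13 of 14 glutamatergic clusters, and proteasome genes in 8 of 9 and 10 of 14. Genes of mTORC1 and its regulators were lower in 6 of 9 and 8 of 14. Immediate-early genes were lower in 2 of 9 and 9 of 14, and ionotropic glutamate receptor genes in 4 of 9 and 2 of 14. The share over all genes was not computed by cluster. One alternative gave each cluster the same weight in both treatments, set by its UMIs in both together (called equal cluster weights or equal weights below). It left out clusters with under 10 nuclei of the class in either treatment. Under it and the other alternatives tried, the cholesterol and fatty acid median stayed below 0 in both classes. It ran from -0.17 to -0.06 in GABAergic and from -0.22 to -0.11 in glutamatergic neurons.

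**Figure D2:**
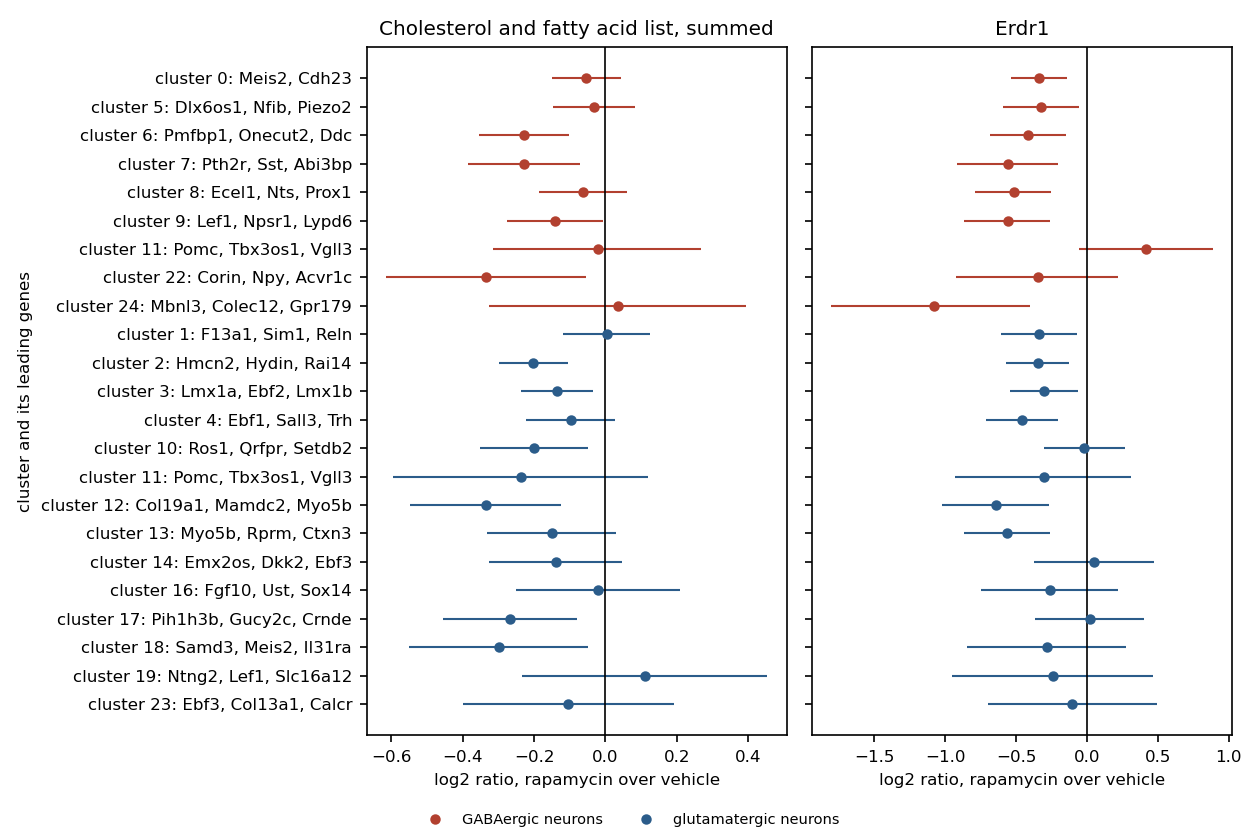
Log2 ratio of rapamycin over vehicle by cluster, for the summed cholesterol and fatty acid list (left) and for Erdr1 (right), in clusters with at least 20 nuclei of the class in each treatment. Bars are 95% counting intervals. The list is below 0 in 8 of 9 GABAergic and 12 of 14 glutamatergic clusters, and Erdr1 in 8 of 9 and 12 of 14. Heat shock genes, not shown, were below 0 in 8 of 9 and 13 of 14.

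The drug's own pathway was described by 48 genes. Of the 48 genes of mTORC1 and its regulators, 43 were measured in each class, and the median was -0.04 (-0.12 to -0.01) in GABAergic and 0.00 (-0.07 to 0.05) in glutamatergic neurons. In GABAergic neurons 29 of 43 were lower and 6 were past the fold below vehicle, against 55.2% and 7.55% of all genes. In glutamatergic neurons 21 were lower and 0 past the fold below, against 57.6% and 7.64%. The classes were not tested against each other. Mtor, the kinase, had 426 UMIs with rapamycin and 458 with vehicle in GABAergic and 538 and 633 in glutamatergic neurons, with ratios of 0.04 (-0.15 to 0.24) and -0.15 (-0.32 to 0.02). Rptor, its scaffold in mTORC1, stood at 0.03 (-0.09 to 0.15) and 0.11 (0.00 to 0.23), and Fkbp1a, which encodes the protein that binds the drug, at -0.12 and -0.08.

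The Lamtor genes encode the Ragulator complex, which holds mTORC1 at the lysosome. Lamtor5 was the lowest gene of the list in GABAergic neurons, with 65 and 101 UMIs and a ratio of -0.49 (-0.96 to -0.03), and had 86 and 81 UMIs in glutamatergic neurons, a ratio of 0.17 (-0.28 to 0.63). Of the next lowest genes, named after their values were seen, Prr5, an mTORC2 subunit gene, and Rhebl1, a relative of the mTORC1 activator Rheb, were at -0.39 and -0.39 in GABAergic and at 0.05 and 0.17 in glutamatergic neurons. Lamtor1 and Lamtor3 were at -0.37 (-0.71 to -0.02) and -0.37 (-0.63 to -0.12) in GABAergic neurons and at 0.10 and -0.05 in glutamatergic neurons. The highest gene was Akt1s1, an mTORC1 inhibitor, at 0.29 (-0.20 to 0.78) in GABAergic neurons, and Rps6, the ribosomal substrate of the downstream kinase, at 0.30 (-0.06 to 0.66) in glutamatergic neurons. Tsc1 and Tsc2, the brakes on mTORC1, stood at -0.12 and -0.21 in GABAergic and at -0.14 (-0.26 to -0.02) and 0.00 in glutamatergic neurons. The translation repressor Eif4ebp2 stood at 0.13 and -0.18.

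Genes of protein turnover had medians slightly below 0 in both classes, as did all genes. Of 31 proteasome genes, which encode the main machine for breaking down tagged proteins, 25 were lower in GABAergic neurons and 22 in glutamatergic neurons (55.2% and 57.6% of all genes), with medians of -0.10 (-0.14 to -0.02) and -0.05 (-0.11 to -0.03). The lowest was Psmd2 in GABAergic neurons, with 132 and 204 UMIs and a ratio of -0.48 (-0.81 to -0.16). In glutamatergic neurons the lowest was Psma5, at -0.23 (-0.47 to 0.01), and Psmd2 stood at -0.18.

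Of 16 measured genes of the proton pump that acidifies lysosomes and synaptic vesicles, 15 were lower in GABAergic neurons, with a median of -0.08 (-0.17 to -0.05), and 11 in glutamatergic neurons, with a median of -0.06 (-0.16 to 0.04). The subunit gene Atp6v1g1 was lowest in GABAergic neurons at -0.41 (-0.88 to 0.06) and stood at 0.17 in glutamatergic neurons. Of the genes of autophagy and the lysosome, 31 of 47 and 32 of 50 were lower, against 55.2% and 57.6% of all genes, with medians of -0.04 and -0.06. Map1lc3b, a marker protein of autophagosomes, was the lowest in GABAergic neurons at -0.42 (-0.88 to 0.04) and stood at 0.00 in glutamatergic neurons. Lamp1, a lysosomal membrane glycoprotein whose promoter is shown above, had 296 and 415 UMIs in GABAergic neurons, a ratio of -0.34 (-0.56 to -0.12), and 402 and 476 in glutamatergic neurons, a ratio of -0.16 (-0.35 to 0.04).

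Ribosomal protein genes, whose messages depend on mTORC1 for translation, were close to all genes in level. Their medians were -0.01 (-0.05 to 0.02) over 77 genes in GABAergic and -0.04 (-0.10 to 0.01) over 78 genes in glutamatergic neurons, with 41 and 44 lower. Rplp1 was lowest in GABAergic neurons at -0.74 (-1.22 to -0.26), against -0.09 in glutamatergic neurons, where Rps19 was lowest at -0.47 (-0.88 to -0.07). Of the translation factor genes, 29 of 41 and 29 of 42 were lower, against 55.2% and 57.6% of all genes, with medians of -0.07 and -0.04.

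Heat shock genes, most of which encode chaperones and their helpers, were lower in 13 of 17 cases in GABAergic and 13 of 18 in glutamatergic neurons. The shares of all genes were 55.2% and 57.6%. The medians were -0.05 (-0.13 to 0.00) and -0.10 (-0.22 to 0.00), and these intervals held the median of all genes. In GABAergic neurons the lowest was Hsph1, with 181 and 250 UMIs and a ratio of -0.32 (-0.60 to -0.04), against -0.01 in glutamatergic neurons. In glutamatergic neurons the lowest was Ahsa1, which activates the chaperone HSP90, with 273 and 397 UMIs and a ratio of -0.45 (-0.68 to -0.23), against -0.13 in GABAergic neurons. The highest there was Dnajb1 at 0.37 (-0.19 to 0.94), which had 28 and 55 UMIs in GABAergic neurons and was not measured in them. Hsp90aa1, which encodes an HSP90 and was named after its values were seen, was the next lowest in both, at -0.22 and -0.33. Genes of the endoplasmic reticulum stress response had medians of -0.03 over 23 and -0.10 over 24 genes.

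Among the immediate-early genes, which respond quickly to neuronal activity, Fos was higher in GABAergic neurons and Junb lower in glutamatergic neurons. Fos, which encodes a subunit of the AP-1 transcription factor, had 74 UMIs with rapamycin and 34 with vehicle in GABAergic neurons, or 10.0 (7.87 to 12.6) against 4.16 (2.88 to 5.81) CPM. In glutamatergic neurons it had 53 and 57 UMIs, or 5.80 (4.34 to 7.58) against 5.87 (4.45 to 7.61) CPM. The GABAergic rapamycin value was above the other 3, which overlapped. The ratios were 1.27 (0.66 to 1.90) and -0.02 (-0.59 to 0.55), a difference of 1.29 (0.49 to 2.08) that was not tested.

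The Fos counts came from few nuclei. Of the GABAergic nuclei 35 with rapamycin and 25 with vehicle held a Fos UMI, or 3.24% and 2.13%, against 1.02% of glial nuclei, and after thinning to 3000 UMIs the shares were 2.13%, 1.07% and 1.21%, so that the vehicle share lay at that of glia. Cluster 5, led by Dlx6os1, Nfib and Piezo2, held 22 of the rapamycin and 7 of the vehicle UMIs. Among nuclei that met a stricter GABAergic rule of 4 or more UMIs, Fos had 18 and 20 UMIs and a ratio of 0.05 (-0.95 to 1.04), so the higher level was not seen in those nuclei.

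Junb, another AP-1 subunit, was lower with rapamycin in glutamatergic neurons, with 77 and 138 UMIs, or 8.42 against 14.2 CPM and a ratio of -0.75 (-1.18 to -0.34). It was below vehicle in 4 of 4 glutamatergic clusters with enough UMIs. In GABAergic neurons it had 80 and 64 UMIs, a ratio of 0.47 (-0.02 to 0.97). Over the list the median was 0.19 (-0.10 to 0.47) over 9 measured genes and -0.01 (-0.20 to 0.13) over 12. Fos was the highest and Btg2, a growth-restraining gene, the lowest at -0.12 in GABAergic neurons, and in glutamatergic neurons Vgf, a secreted granule protein, was the highest at 0.21. The 10 genes that respond to tissue dissociation, Fos and Junb among them, summed to 42.8 and 34.4 CPM in GABAergic and to 32.8 and 38.8 CPM in glutamatergic neurons, and 3 of the 10 were measured. Their part in these values was not tested.

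Synaptic genes were described in several lists. Of 16 measured genes of ionotropic glutamate receptors, the channels of fast excitation, 11 were higher in GABAergic neurons, with a median of 0.04 (-0.02 to 0.13). In glutamatergic neurons 13 were higher, with a median of 0.06 (0.02 to 0.11). Of all genes measured, 44.8% were higher in GABAergic and 42.4% in glutamatergic neurons. The highest in both was Grin2d, an NMDA receptor subunit, with 170 and 168 UMIs and a ratio of 0.16 (-0.15 to 0.48) in GABAergic neurons and 207 and 167 UMIs and a ratio of 0.40 (0.10 to 0.70) in glutamatergic neurons. The lowest were Gria3 at -0.10 and Grin1 at -0.04. The 6 measured metabotropic receptor genes had medians of 0.14 and 0.00, and the 14 genes of GABA receptors medians of 0.00 and 0.01. The highest metabotropic gene in GABAergic neurons, Grm4, had 72 and 50 UMIs in GABAergic neurons, a ratio of 0.67 (0.13 to 1.22), and stood at 0.04 in glutamatergic neurons.

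Synaptic adhesion genes were higher in 26 of 34 cases in GABAergic and 20 of 33 in glutamatergic neurons, against 44.8% and 42.4% of all genes, both with medians of 0.04. Their lowest member was Slitrk1 in both classes, at -0.37 and -0.25. Vesicle release genes had medians of 0.02 and 0.04. These medians are small beside the counting intervals of most single genes.

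Potassium channel genes had medians of 0.03 and 0.04, and 5 of 39 were past the fold above vehicle in glutamatergic neurons against 1 of 38 in GABAergic neurons. The background for these counts was 3.87% and 4.47%. Kcnk3, a channel that sets resting potential, was the highest in glutamatergic neurons, with 117 and 85 UMIs and a ratio of 0.55 (0.13 to 0.97), against -0.17 in GABAergic neurons. Kcnc2, a channel of fast repolarization named after its values were seen, had 4271 and 3566 UMIs in glutamatergic neurons, a ratio of 0.35 (0.28 to 0.41), and 3435 and 3862 in GABAergic neurons, a ratio of -0.02 (-0.09 to 0.04). Kcnh8 was the lowest in GABAergic neurons at -0.49 (-0.69 to -0.30) and stood at -0.27 (-0.46 to -0.09) in glutamatergic neurons. It was lower in 8 of 9 GABAergic clusters but in 4 of 12 glutamatergic clusters.

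Genes of leptin action and feeding had few counts. Lepr, the leptin receptor, had 187 and 183 UMIs in GABAergic neurons, a ratio of 0.18 (-0.12 to 0.48), and 172 and 225 in glutamatergic neurons, a ratio of -0.30 (-0.60 to -0.01). Agrp, a peptide that drives feeding, was at 0.19 (0.00 to 0.38) and -0.05 (-0.24 to 0.15). It was seen in 30.0% and 29.0% of GABAergic nuclei, in 26.6% and 26.4% of glutamatergic nuclei and in 11.7% of glial nuclei. After thinning the shares were 16.1%, 14.9%, 13.1%, 13.2% and 14.8%, close to that of glia in all 4 groups, and these shares are read as background. Pomc, the precursor of melanocortin peptides that restrain feeding, was at 0.15 (-0.20 to 0.50) and -0.04 (-0.47 to 0.39), and at -0.33 and -0.78 under the stricter class rule.

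Cartpt, a satiety peptide, had 135 and 138 UMIs in GABAergic neurons, a ratio of 0.11 (-0.24 to 0.47) that stood at -0.47 under a wider class rule, and 108 and 175 in glutamatergic neurons, a ratio of -0.61 (-0.97 to -0.26). Cluster 19, led by Ntng2, Lef1 and Slc16a12, held 1 of the 108 and 34 of the 175, and without the nucleus with most UMIs in each treatment the glutamatergic ratio was -0.45. Sst stood at 0.13 (-0.34 to 0.59) in GABAergic neurons. Mc4r, Npy and Trh were under the minimum of 100 UMIs in both classes. Among receptors of energy balance, Calcr, the calcitonin receptor, was lowest in GABAergic neurons with 139 and 230 UMIs, a ratio of -0.58 (-0.89 to -0.27), and was at -0.42 (-0.71 to -0.12) in glutamatergic neurons. Npy1r, a receptor of neuropeptide Y, was lowest in glutamatergic neurons with 52 and 87 UMIs, a ratio of -0.66 (-1.18 to -0.14), and was at -0.30 in GABAergic neurons. The medians of this list of 13 measured genes were -0.03 and -0.01.

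Over the whole transcriptome, genes were ranked within each class by the bound of the interval nearest to 0. In GABAergic neurons Ebf1, a transcription factor of neuronal differentiation, ranked first among genes higher with rapamycin. It had 262 UMIs with rapamycin and 110 with vehicle, or 35.5 (31.3 to 40.1) against 13.5 (11.1 to 16.2) CPM, a ratio of 1.40 (1.07 to 1.73). In glutamatergic neurons Ebf1 was more abundant and level, with 858 and 874 UMIs and a ratio of 0.06 (-0.08 to 0.20). Within GABAergic cluster 5 it had 138 and 38 UMIs, and it was higher in 4 of 4 GABAergic clusters with enough UMIs. Under the stricter class rule it had 51 and 34 UMIs and a ratio of 0.79 (0.13 to 1.46).

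Pappa2, a protease that frees insulin-like growth factors, had 79 and 37 UMIs in GABAergic neurons, a ratio of 1.24 (0.66 to 1.85), against 0.12 in glutamatergic neurons. Sh3bp4 and the noncoding RNA Pantr1 followed at 1.17 and 0.99, against 0.16 and -0.03. Gpc5, a heparan sulfate proteoglycan, had 2777 and 2112 UMIs, a ratio of 0.54 (0.46 to 0.62), and was higher by less in glutamatergic neurons, with 5899 and 5245 UMIs and a ratio of 0.26 (0.20 to 0.31). Man1a, a mannosidase of glycoprotein processing, stood at 0.58 (0.39 to 0.77) and 0.19 (0.05 to 0.32). Under the wider class rule the GABAergic ratios of Gpc5 and Man1a were 0.37 and 0.24. Gpc5 was higher in 6 of 9 GABAergic and 9 of 14 glutamatergic clusters, and Man1a in 6 of 7 and 9 of 12.

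Of the 10 lowest named genes of GABAergic neurons, Erdr1 was the best counted. It had 1582 UMIs with rapamycin and 2302 with vehicle, or 214 (204 to 225) against 282 (270 to 293) CPM. In glutamatergic neurons it had 2095 and 2794 UMIs, or 229 (219 to 239) against 288 (277 to 299) CPM. The levels of both rapamycin groups lay below those of both vehicle groups, with ratios of -0.39 (-0.49 to -0.30) and -0.33 (-0.41 to -0.25). Erdr1 was lower in 8 of 9 GABAergic and 12 of 14 glutamatergic clusters. Ppp1r35, which encodes a centrosome protein, had 29 and 71 UMIs in GABAergic neurons, a ratio of -1.15 (-1.82 to -0.50), against 0.13 in glutamatergic neurons, and stood at -0.24 under the stricter class rule. Spag16, a gene of the cilium axoneme, had 150 and 278 UMIs, a ratio of -0.74 (-1.04 to -0.45), against -0.13, and Rnf5, a ubiquitin ligase, 35 and 73, a ratio of -0.91, against 0.09. Rnf5 stood at -1.60 under the stricter class rule.

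In glutamatergic neurons Mxra7 ranked first among genes lower with rapamycin, with 39 and 93 UMIs, or 4.27 against 9.58 CPM and a ratio of -1.17 (-1.75 to -0.61). It had 55 and 46 UMIs in GABAergic neurons, a ratio of 0.40. Arhgap31 and Arhgap15, which switch off small GTPases, were at -0.94 and -0.71, Six3, a forebrain transcription factor, at -1.02, and Ctxn3 and Mypn at -0.93 and -0.90. Myo5b, a vesicle motor and the best counted of the 10 lowest genes, had 343 and 536 UMIs, a ratio of -0.56 (-0.76 to -0.36), and stood at -0.27 with equal cluster weights. Zfp951 and Slc7a4 stood at -0.71 and -0.85, the latter at -0.20 under the stricter class rule. Among higher genes Sema3e, an axon guidance ligand, had 161 and 101 UMIs, a ratio of 0.76 (0.39 to 1.13), and Eno4, Murc and Lbh stood at 0.96, 0.94 and 0.84.

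**Figure D3:**
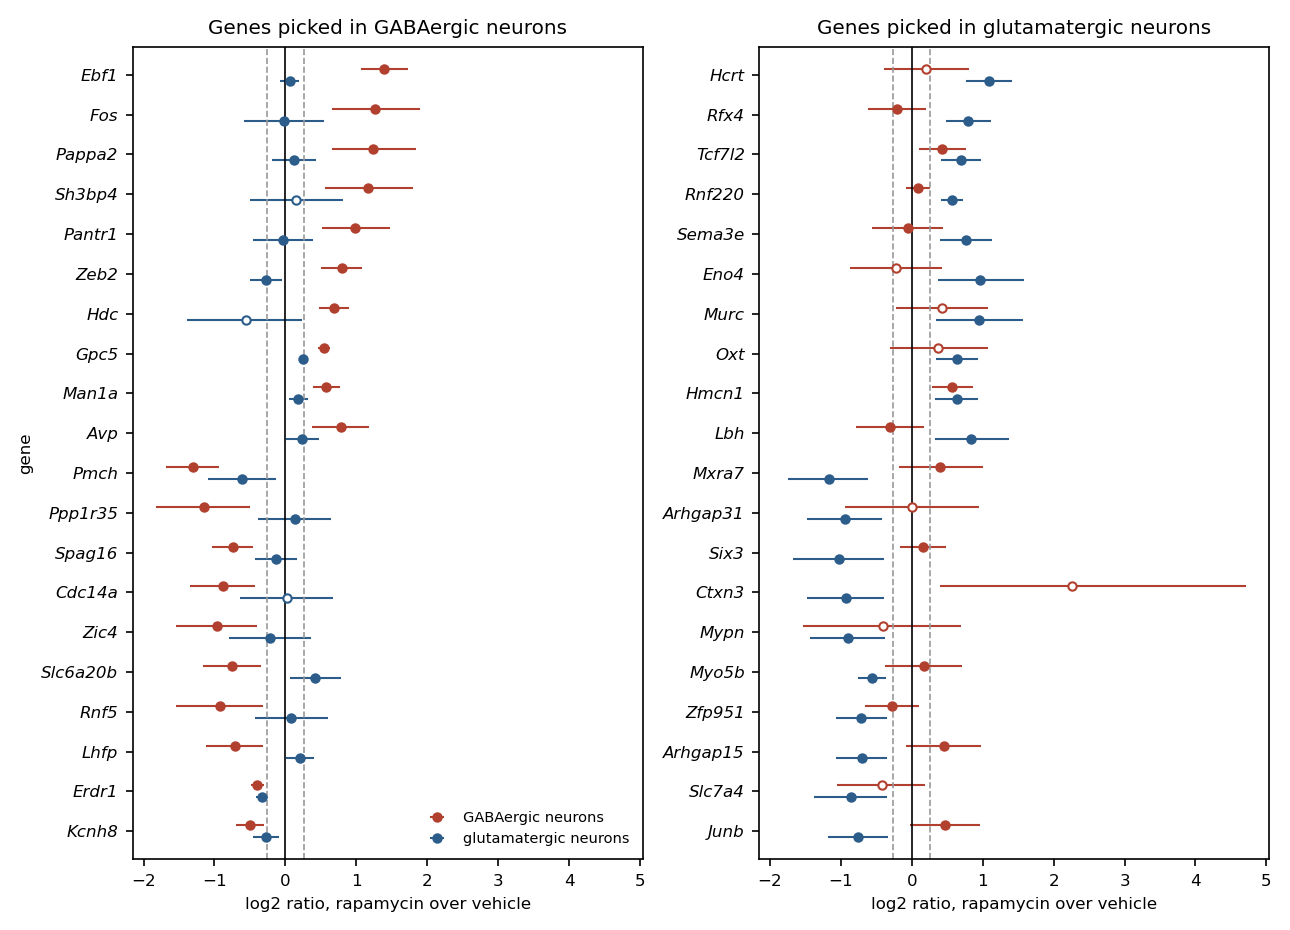
Log2 ratio of rapamycin over vehicle for the 10 highest and 10 lowest named genes of GABAergic (left) and glutamatergic (right) neurons, shown in both classes with 95% counting intervals. Open circles have under 100 UMIs in that class and dashed lines mark 1.2-fold. Ebf1 is at 1.40 and 0.06, and Erdr1 at -0.39 and -0.33.

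Several of the extreme genes mark small groups of neurons, and the nuclei of these groups are given beside them. Their part in the ratios was not tested. In tissue samples of this kind fewer cells of a type and less RNA per cell cannot be told apart from a class sum. Pmch, the melanin-concentrating hormone, had 86 and 235 UMIs in GABAergic neurons, a ratio of -1.30 (-1.68 to -0.94). Of these, 42 and 193 lay in cluster 33, which held 4 rapamycin and 10 vehicle nuclei of the class at 1273 and 1481 CPM. With equal cluster weights, a fit that used clusters with at least 10 nuclei in each treatment and so left cluster 33 out, the ratio was 0.18, and with equal nucleus weights it was -0.61.

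Hcrt, the orexin precursor, had 234 and 117 UMIs in glutamatergic neurons, a ratio of 1.09 (0.76 to 1.42). Cluster 28, led by Hcrt, held 20 and 13 nuclei with 197 and 68 of these UMIs, and the ratio was 0.32 with equal cluster weights. Hdc, which makes histamine, had 443 and 304 UMIs in GABAergic neurons, a ratio of 0.69 (0.48 to 0.90). Cluster 31 held 24 and 16 nuclei with 431 and 286 of them, and the ratio was 0.28 with equal weights.

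Tcf7l2 and Rnf220, at 0.69 (0.42 to 0.97) and 0.56 (0.41 to 0.72) in glutamatergic neurons, stood at 0.09 and 0.02 with equal weights. Cluster 34, which they lead with Synpo2, held 29 rapamycin and 11 vehicle nuclei. Tcf7l2 and Synpo2 are also thalamic markers, of which 8 of 10 were measured and which summed to 2049 and 1963 CPM in glutamatergic and 1446 and 1430 CPM in GABAergic neurons. Rfx4 and Hmcn1 stood at 0.80 and 0.63 in glutamatergic neurons and at 0.36 and 0.22 with equal weights. In GABAergic neurons Cdc14a at -0.88 and Zic4 at -0.96 stood at -0.51 and -0.48 with equal weights, and Zic4 at 0.0012 under the stricter class rule. Cluster 35, led by Cdc14a, Vipr2 and Syt10, held 6 rapamycin and 19 vehicle nuclei of the class and was left out of those weights.

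Avp and Oxt, which encode vasopressin and oxytocin, rested on very few nuclei. Avp had 135 and 87 UMIs in GABAergic neurons, a ratio of 0.78 (0.38 to 1.19), but 86 of the 135 were in 1 nucleus, and without the top nucleus of each treatment the ratio was -0.56. With equal nucleus weights it was 0.18. Oxt had 231 and 158 UMIs in glutamatergic neurons, a ratio of 0.63 (0.34 to 0.94). Of the 231, 54 were in 1 nucleus, and the ratio was 0.46 without the top nuclei, 1.93 with equal cluster weights and -0.59 under the stricter class rule. Cluster 30, led by Oxt and Avp, held 9 rapamycin and 14 vehicle glutamatergic nuclei, and 4 and 2 GABAergic nuclei. It was left out of the cluster weights in both classes. No direction is drawn for either gene.

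**Figure D4:**
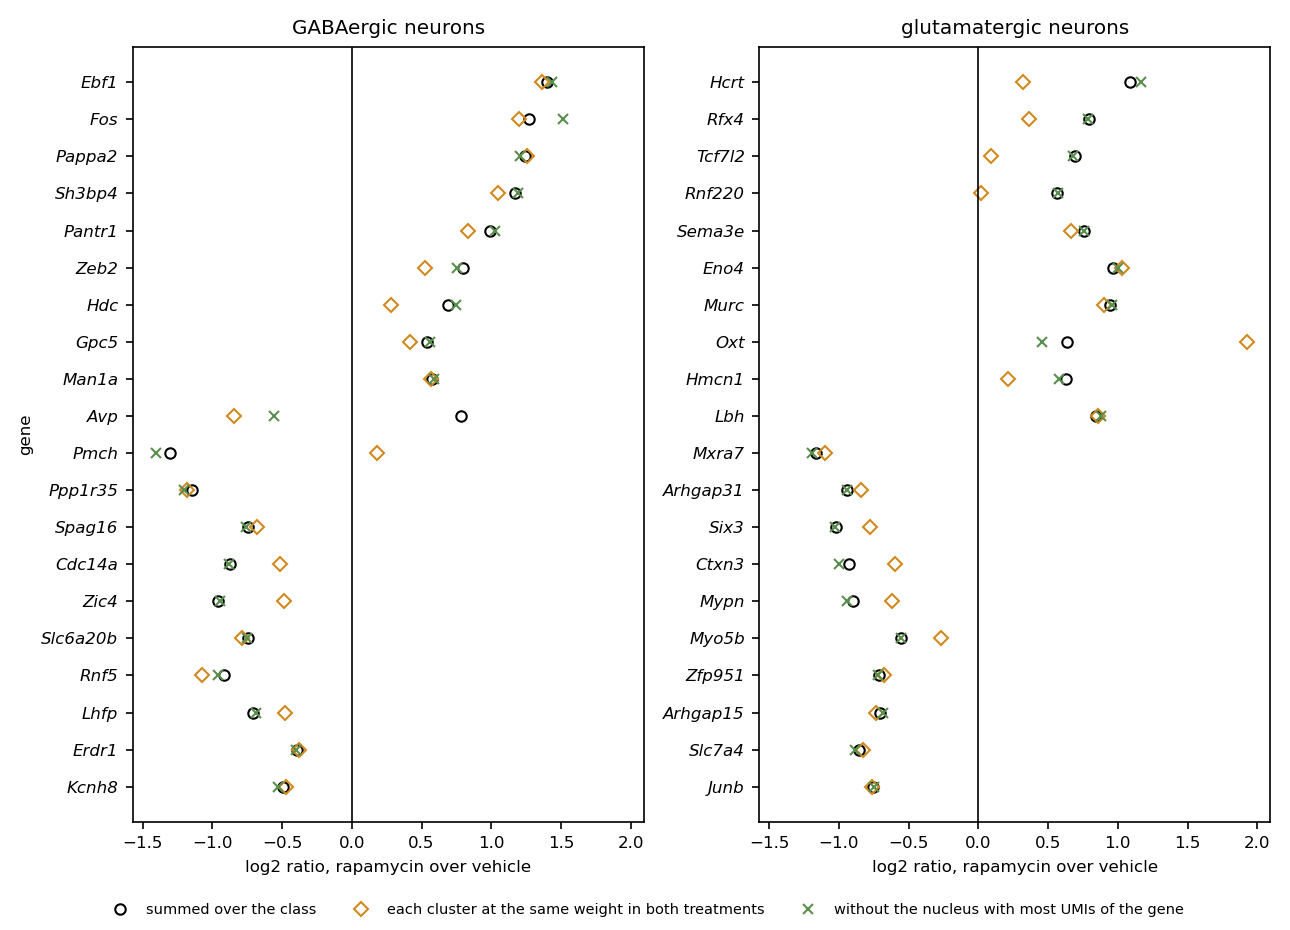
Log2 ratio of rapamycin over vehicle for the named genes of each class. Circles are sums over the class, and crosses leave out the nucleus that holds most UMIs of the gene. Diamonds give each cluster the same weight in both treatments and leave out clusters with under 10 nuclei of the class in either treatment. Avp moves from 0.78 to -0.85 and -0.56, and Pmch from -1.30 to 0.18 with equal weights, while Ebf1, Pappa2, Erdr1 and Junb stay close to their sums.

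Markers of other cell types were summed in the 4 groups. The 8 astrocyte markers summed to between 63.6 and 82.0 CPM, the 8 oligodendrocyte markers to between 43.5 and 47.2, the 7 microglial markers to between 120 and 132, the 6 endothelial markers to between 6.02 and 6.73 and the 9 pituitary markers to between 1.53 and 2.82. The 6 pericyte and fibroblast markers summed to 7.31 CPM with rapamycin and 9.30 with vehicle in GABAergic neurons, and to 2.73 and 3.50 in glutamatergic neurons. The 6 markers of oligodendrocyte precursors summed to 13.0 and 16.4 CPM, and to 14.5 and 18.6. Markers of striatum and septum summed to 858 CPM with rapamycin and 781 with vehicle in GABAergic neurons, and to 707 and 639 in glutamatergic neurons. Their part in the results was not tested.

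The same rule gave 1332 rapamycin and 1131 vehicle GABAergic neurons and 1484 and 1232 glutamatergic neurons in the DIO pool. In the OB pool it gave 736 and 505, and 732 and 701. In these pools the cholesterol and fatty acid median was -0.09 (-0.14 to -0.06) in GABAergic and 0.03 (-0.10 to 0.10) in glutamatergic neurons of DIO mice, and -0.02 (-0.13 to 0.23) and 0.02 (-0.13 to 0.09) in those of OB mice. All genes had medians of 0.02 and 0.03 in DIO and of 0.04 and 0.03 in OB mice. Of the list, 21 of 28 genes were lower in DIO GABAergic neurons and 14 of 29 in DIO glutamatergic neurons, against the 20 of 28 and 26 of 30 in chow mice. In DIO mice 11.9% of all genes measured were past the fold above and 5.35% below vehicle in GABAergic neurons, and 12.1% and 5.13% in glutamatergic neurons. In OB mice the shares were 14.1% and 8.17%, and 12.8% and 7.87%. Heat shock genes had medians of 0.06 and 0.04 in DIO and of 0.17 (0.09 to 0.50) and 0.23 (0.09 to 0.31) in OB mice.

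For single genes in the DIO pool, Erdr1 was lower with rapamycin in both classes, at -0.15 (-0.27 to -0.04) in GABAergic and -0.20 (-0.31 to -0.08) in glutamatergic neurons. Ebf1 was at -0.10 and 0.04 there. Fos had 20 and 33 UMIs in GABAergic and 10 and 64 UMIs in glutamatergic neurons of that pool, ratios of -0.78 (-1.66 to 0.07) and -2.76 (-3.89 to -1.79). None of these differences between pools was tested, since each pool has 1 hashtag per treatment.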

How the data were processed

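Gene and hashtag counts (UMIs) of the chow, DIO and OB pools were used as the authors deposited them, 1 gene and 1 hashtag matrix per pool, made with Cell Ranger 6.0.0 (7.0.1 for OB) per the file headers, and on mm10 per the submitters' processing notes. All 10853 chow barcodes passed the minimum of 500 UMIs and 300 genes and the maximum of 5% mitochondrial UMIs. Leiden clustering (leidenalg 0.10.2, scikit-learn 1.9.0, 3000 variable genes, 40 principal components) gave 41 clusters. Of these, 6 were left out for 3 or more markers of a non-neuronal cell type at over 3-fold and a pan-neuronal ratio under 0.5, and the other 35 held 10275 neurons. Cluster 30, led by Oxt and Avp, had 5 astrocyte markers and a pan-neuronal ratio of 0.942, and was kept. Of the neurons, 9940 were called for a hashtag and 335 were not. Nuclei in which neither hashtag stood out by the margin were left out, while doublets within a hashtag were not removed. HTODemux in Seurat 5.3.0 (R 4.3.3) called 81 members doublets and 29 unassigned, and assigned 0 to the other hashtag. The 81, positive for both hashtags by that caller, were kept in the main values.

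UMIs were summed per class and treatment. Levels have exact Poisson intervals and ratios exact binomial intervals (Clopper-Pearson, scipy 1.17.1, numpy 2.4.6, Python 3.11.15). List medians have intervals from the ranks of their genes. The calculation was tested on simulated data. With 1 sample per group no test was made. Named genes were the 10 with the highest lower bound and the 10 with the lowest upper bound per class (numbered gene models left out), the highest and lowest genes of each list, and a fixed set that included Mtor, Fos, Lepr and the genes of the rule. Other genes are named by their step in the pathway. The members and the lists were chosen with earlier results of these data known. The alternatives were other hashtag margins and callers, class rules, UMI minimums, scaling (edgeR 4.0.16, TMM) and cluster weights. Some genes of the lists are counted in them but not reported here by name or value.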

Additional observations from a re-analysis of the deposited data

Results flagged for a closer look

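For 3 of the ranked genes that were measured in both classes, the classes lay on opposite sides of 0 and neither interval included 0. Ctxn3 also did so, but had 13 and 3 UMIs in GABAergic neurons and was not measured there. Zeb2, a transcription factor of interneuron development, had 260 UMIs with rapamycin and 166 with vehicle in GABAergic neurons, a ratio of 0.79 (0.51 to 1.08), and 286 and 367 in glutamatergic neurons, a ratio of -0.27 (-0.50 to -0.05). The difference was 1.07. Among clusters with enough UMIs, Zeb2 was higher with rapamycin in 3 of 3 GABAergic clusters but also in 2 of 3 glutamatergic clusters. The glutamatergic cluster ratios ran from -0.39 to 1.18. Slc6a20b, an amino acid transporter gene, had 77 and 143 UMIs in GABAergic neurons, a ratio of -0.75 (-1.17 to -0.34), and 144 and 114 in glutamatergic neurons, a ratio of 0.42 (0.06 to 0.79), a difference of -1.17. Lhfp had 80 and 145 UMIs in GABAergic neurons, a ratio of -0.71 (-1.12 to -0.31), and 452 and 415 in glutamatergic neurons, a ratio of 0.21 (0.01 to 0.41), a difference of -0.92. The GABAergic ratio of Lhfp was -0.16 under a wider class rule and -0.48 with equal cluster weights, and that of Slc6a20b -0.42 under the wider rule. With 1 sample per group these differences were not tested. Zeb2 was seen in 8.62% of rapamycin and 5.61% of vehicle GABAergic nuclei, in 7.82% and 10.0% of glutamatergic nuclei and in 56.6% of glial nuclei. For Lhfp the shares were 4.82% and 6.21%, 16.6% and 15.9%, and 45.3%. For Slc6a20b they were 6.58% and 10.5%, 10.5% and 7.88%, and 2.05%. The part of glial RNA in these ratios was not tested.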

How the results depend on the processing

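No paired analysis was possible because each treatment was 1 hashtag in 1 library, so there were no numbered replicates to pair or to leave out. Over 11 alternatives, 562 list medians moved by less than their interval. Of the 562, 52 were under TMM scaling, which shifts all medians of a class alike and says little about stability. A further 6 medians moved by more than their interval, all 6 under the stricter class rule. These were ribosomal proteins at -0.14, vesicle release at -0.021, synaptic adhesion at 0.091, neuropeptide processing at -0.055 and energy balance receptors at 0.10 in GABAergic neurons, and ribosomal proteins at 0.014 in glutamatergic neurons. That rule left 344 rapamycin and 391 vehicle GABAergic and 521 and 579 glutamatergic neurons, and a wider rule gave 1794 and 1966 GABAergic neurons. With a minimum of 50 UMIs, 787 genes were past the fold above and 1269 below vehicle in GABAergic and 756 and 1346 in glutamatergic neurons. With 300 UMIs the numbers were 129 and 206, and 130 and 265, as fewer genes were tested. Leaving out the nucleus with most UMIs of a gene was added after the data were seen. Among single genes 904 values moved by less than their interval, 36 by more, and 7 of 564 took the opposite sign to a ratio whose interval excluded 0. Where the interval included 0, a further 36 of 383 values had the opposite sign. The 904 include 79 values each under the minimums of 50 and 300 UMIs, which cannot change the ratio of a gene. They also include 79 under TMM scaling, which adds the same amount to all ratios of a class. These values say little about stability, and the totals of 564 and 383 include them too. The 7 were, in GABAergic neurons, Avp at -0.80 under the stricter rule, -0.85 with equal cluster weights and -0.56 without its top nucleus, Zic4 at 0.0012 and Agrp at -0.00016 under the stricter rule, and Pmch at 0.18 with equal weights. In glutamatergic neurons Oxt stood at -0.59 under the stricter rule. The cause was not tested. TMM scaling shifted all ratios by 0.018 in GABAergic and 0.023 in glutamatergic neurons. Counts limit single genes, since at 100 UMIs an interval spans more than the 1.2-fold limit.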

Other observations

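Genes of energy metabolism and of the circadian clock were not described above. Nuclear genes of oxidative phosphorylation were lower with rapamycin in 47 of 71 cases in GABAergic and 41 of 71 in glutamatergic neurons, both with medians of -0.05, against 55.2% and 57.6% of all genes, so that the latter count is no more than the share of all genes. Uqcr11, a subunit of respiratory complex III, was the lowest in GABAergic neurons at -0.68, and Ndufa2, a subunit of complex I, the lowest in glutamatergic neurons at -0.44. Glycolysis genes had medians of -0.01 and -0.04. Pdk2, a kinase that restrains pyruvate dehydrogenase, had 81 and 137 UMIs in glutamatergic neurons, a ratio of -0.67 (-1.09 to -0.26), and 115 and 120 in GABAergic neurons, a ratio of 0.08. Clock genes had medians of -0.04 in GABAergic and 0.04 in glutamatergic neurons, where 13 of 18 were higher, against 42.4% of all genes, and the output gene Dbp was the highest at 0.37. Per2, a repressor of the clock, was the highest in GABAergic neurons at 0.31.

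In genes of leptin, insulin and IGF signalling the medians were 0.06 over 31 genes in GABAergic and 0.00 over 31 in glutamatergic neurons. Igf1, the growth factor, was the lowest in both, with 51 and 88 UMIs and a ratio of -0.64 in GABAergic neurons and a ratio of -0.38 in glutamatergic neurons. Socs2, a feedback inhibitor of cytokine receptors, was the highest in GABAergic neurons at 0.47. Foxo3, a transcription factor that insulin signalling restrains, was the highest in glutamatergic neurons at 0.39 (0.13 to 0.66).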
